A study of Mus musculus with 22 samples.

Results

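The departure from additivity of guides against Bcor and Runx1 was measured in mouse bone marrow: for each gene, the effect of adding the Bcor guide in the presence of the Runx1 guide was set against its effect in the absence of it. Written on the log2 scale, the quantity is (sgBcor + sgRunx1 minus sgRunx1 + sgLuc) minus (sgBcor + sgLuc minus sgLuc), called the interaction here, and it is 0 when the effects of the guides add up. Of 47069 genes in the count table, 16170 passed a filter on low counts and lay off the X and Y chromosomes, and 1042 of these had an interaction at a false discovery rate (FDR) under 0.05 in edgeR's quasi-likelihood test. That is 6.44 percent of the genes tested, and they are the genes described here.

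All groups started from the LSK fraction of marrow, which is enriched for blood stem cells and early progenitors, taken from mice with a Cas9 knock-in; the labels give the strain as C57BL/6. Guide RNAs (sgRNAs) were delivered in combinations, and the cells were transplanted a day later into C57BL/6 mice irradiated with 7 Gy. Whole marrow was collected once a recipient showed signs of leukaemia, or otherwise after 6 months; the labels do not say which of these applied to which mouse. Of the 22 libraries of the series, the 15 used here were 6 with the control guide sgLuc, 3 with sgRunx1 + sgLuc, 3 with sgBcor + sgLuc and 3 with sgBcor + sgRunx1. Whole marrow of such recipients can hold unedited donor cells and cells of the recipient beside edited ones, and neither the share of edited cells nor the age or sex of the mice is given in the labels.

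RUNX1 is a DNA-binding transcription factor, partnered by CBFB, that directs blood stem cell emergence, megakaryocyte and lymphoid differentiation, and it is a frequent target of mutation in myeloid leukaemia. BCOR is a corepressor and a subunit of the variant Polycomb complex PRC1.1, which places a ubiquitin mark on histone H2A at CpG-rich promoters, and it too is mutated in myeloid malignancy. Additive effects on a log2 scale mean that the fold changes of the guides multiply.

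The libraries held 30023722 to 57175449 counts. Within a group, log2 levels of 2 libraries correlated at 0.966 or above. Levels are given in CPM, counts scaled to a common library size by edgeR's trimmed mean of M values (TMM). Because whole marrow was sequenced, fewer cells of a type and less RNA per cell cannot be told apart. The sgLuc libraries differed from all others in sex, shown by Ddx3y and Xist in CPM without TMM scaling. Ddx3y, a Y-linked helicase, was at 40.1 to 68.7 CPM in the 6 sgLuc libraries and at 0 in the other 9. Xist, the RNA that coats the inactive X, ran from 0.031 to 140 CPM in sgLuc. It ran from 564 to 627 CPM with sgRunx1 + sgLuc and from 644 to 691 with sgBcor + sgLuc. With sgBcor + sgRunx1 it ran from 264 to 430 CPM, overlapping no other group, and the reason was not tested. The non-coding transcript of the ROSA26 locus on chromosome 6, Gt(ROSA)26Sor, where transgenes are often placed, was at 4.37 to 11.3 CPM in sgLuc and 0.17 to 1.15 CPM in the other 9 libraries. The sgLuc guide and these differences of sgLuc from the other groups cannot be told apart, and sgLuc enters the interaction.

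The targeted genes were checked first. Runx1 (chromosome 16) was at 91.4 ± 5.19 CPM (SD, n = 6) with sgLuc, 113 ± 20.2 (n = 3) with sgRunx1 + sgLuc, 113 ± 17.8 (n = 3) with sgBcor + sgLuc and 114 ± 20.5 (n = 3) with sgBcor + sgRunx1. Its interaction was -0.31 ± 0.20 (log2, SE) and did not pass the test. Bcor lies on the X chromosome and so outside the tests. It was at 58.3 ± 5.80 CPM with sgLuc and 56.3 ± 3.58 CPM with sgRunx1 + sgLuc. With sgBcor + sgLuc its libraries stood at 122, 107 and 194 CPM and with sgBcor + sgRunx1 at 157, 63.6 and 76.8 CPM. Neither gene was lower where its own guide was given. Small insertions or deletions need not lower a transcript's count, so RNA levels do not show whether the labelled genes were edited.

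The interaction was positive for 545 genes (3.37 percent of those tested) and negative for 497 (3.07 percent). At an unadjusted p under 0.05 there were 4052. The median interaction over all genes tested was -0.0033, and among called genes its median size was 1.1 on the log2 scale, with an interquartile range of 0.79 to 2.09. For the parts of the contrast, edgeR called 442 genes between sgBcor + sgRunx1 and sgRunx1 + sgLuc (2.73 percent of those tested; 200 higher, 1.24 percent, and 242 lower, 1.50 percent). Between sgBcor + sgRunx1 and sgBcor + sgLuc it called 3210 (19.9 percent; 1418 higher, 8.77 percent, and 1792 lower, 11.1 percent). Against sgLuc it called 2118 genes with sgRunx1 + sgLuc (13.1 percent; 878 higher, 5.43 percent, and 1240 lower, 7.67 percent). For sgBcor + sgLuc the number was 933 (5.77 percent; 541 higher, 3.35 percent, and 392 lower, 2.42 percent), and for sgBcor + sgRunx1 it was 3512 (21.7 percent; 1549 higher, 9.58 percent, and 1963 lower, 12.1 percent). These comparisons share libraries with each other and with the interaction.

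Each called gene was placed in a class from the 4 group means of log2(CPM + 0.5). The effect of both guides against sgLuc was set against the sum of the effects of each guide alone. A gene was reversed where these had opposite signs and each was at least 0.5 in size, synergistic where the effect of both guides was larger in size than the sum, and buffered where it was smaller. On this scale 723 called genes (69.4 percent) were buffered, 202 (19.4 percent) synergistic and 117 (11.2 percent) reversed. The split rests on the limit: with a least size of 0.25 on the log2 scale 361 genes were reversed and 127 synergistic. From linear CPM with no least size it was 302 buffered, 42 synergistic and 690 reversed. On the log2 scale, 686 called genes had opposite signs when no least size was set. Over all genes tested, on the log2 scale with the limit of 0.5, the same classes held 58.7, 35.2 and 1.59 percent. The classes are made of the values that the interaction is made of, so these shares are a description.

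**Figure D1:**
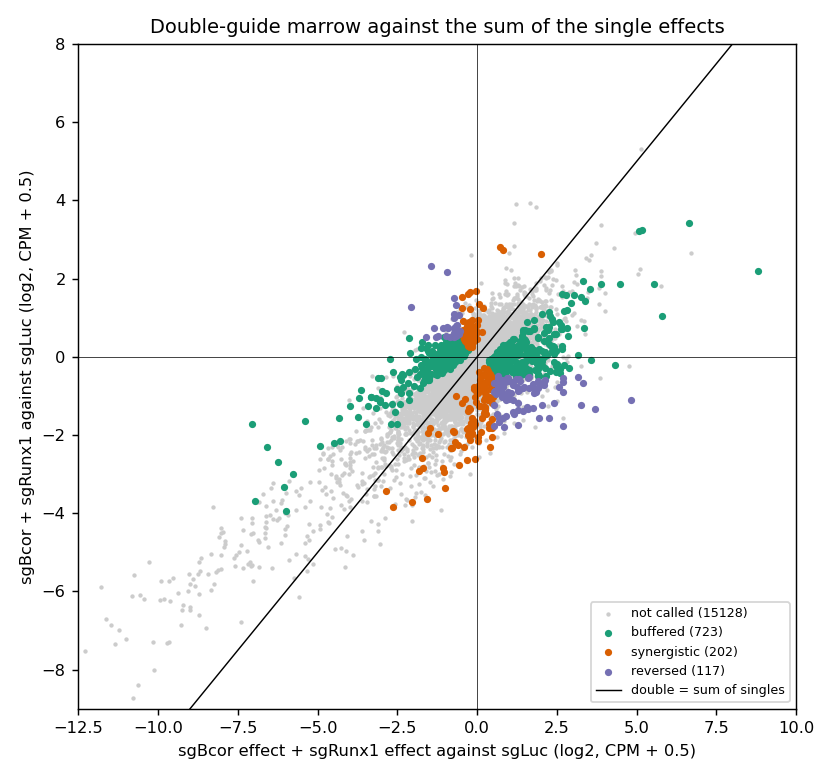
Effect of both guides against sgLuc (y axis) plotted against the sum of the effects of each guide alone (x axis), both in log2 of CPM + 0.5; each point is a gene, grey where not called, and the diagonal marks additivity. The 723 buffered genes lie between the diagonal and the horizontal axis or just across it. The 202 synergistic genes lie beyond the diagonal or, where the sum is under 0.5 in size, in the quadrants of opposite sign. The 117 reversed genes lie in those quadrants, at least 0.5 from both axes.

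Buffered did not as a rule mean that both guides together simply had less effect in the same direction. In 686 of the 1042 called genes the effect of both guides and the sum had opposite signs, and most of these were buffered only because the effect of both guides was under 0.5 in size. Synergistic genes could have opposite signs too, where the sum was under 0.5 in size. For the 97 positive synergistic genes the median effect was -0.20 with sgBcor + sgLuc, -0.03 with sgRunx1 + sgLuc and 0.53 with both guides. These counts and the next use the same 4 means on which genes were called, and calling a gene favours such arrangements, so they describe the called genes and support nothing. The mean of sgBcor + sgRunx1 lay above the means of all the other 3 groups in 383 of the 545 positive genes and below all of them in 353 of the 497 negative genes. Over all genes tested it lay above the others in 29.9 percent and below them in 30.6 percent. The effects of the guides given alone, both taken against the same sgLuc mean, had the same sign in 871 called genes (83.6 percent). Over all genes tested that share was 65.3 percent. In another arrangement the 3 groups with a gene guide lay within 0.5 of each other and at least 1 away from sgLuc. It was met by 14 called genes (1.34 percent) and by 0.51 percent of all genes tested.

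Positive and negative genes differed in kind. Median annotated exonic length was 2556 bases for positive genes, 5983 for negative genes and 3607.5 for all genes tested. Median level was 40.6 CPM for positive genes, 13.1 for negative genes and 13.4 over all genes tested. The positive genes were thus shorter and more abundant, and the part of length in the result was not tested.

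Tnfaip3, Rel, Egr3 and Pde4b, which restrain or carry acute signalling, had negative interactions. Tnfaip3 (chromosome 10) encodes A20, a ubiquitin-editing enzyme that shuts off NF-κB signalling. It ran from 30.7 to 73.3 CPM with a median of 51.8 in the 6 sgLuc libraries. With sgRunx1 + sgLuc it was at 124, 121 and 143 CPM, and with sgBcor + sgLuc at 279, 257 and 140 CPM. With sgBcor + sgRunx1 it was at 28.1, 51.9 and 24.7 CPM. Every library with 1 gene guide was above every sgLuc library, and the libraries with both guides lay at or below about the sgLuc median. The interaction was -3.93 ± 0.45 (log2, SE, edgeR FDR 0.0015), and the gene was reversed.

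Rel (chromosome 11), the NF-κB subunit c-Rel, followed the same course at smaller size. Its median over sgLuc libraries was 55.1 CPM, with a range of 41.5 to 60.7. It stood at 80.6, 78.7 and 70.8 CPM with sgRunx1 + sgLuc, at 130, 92.4 and 77.2 CPM with sgBcor + sgLuc and at 39.7, 32.9 and 43.0 CPM with both guides. The groups with 1 gene guide did not overlap sgLuc, and 2 of 3 libraries with both guides were below all sgLuc libraries. The interaction was -1.89 ± 0.23 (edgeR FDR 0.0015). Rel was classed as buffered, since the effect of both guides was -0.47, just under the size that a reversal requires.

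Egr3 (chromosome 14), a zinc-finger factor induced within minutes of receptor signalling, was lower with both guides than in any other library. It was at 0.23, 0.37 and 0.16 CPM there, against 1.1 to 3.53 CPM (median 2.01) with sgLuc, 4.35, 5.93 and 4.04 CPM with sgRunx1 + sgLuc and 3.18, 1.92 and 2.20 CPM with sgBcor + sgLuc. The interaction was -4.40 ± 0.58 (edgeR FDR 0.0015; reversed). Pde4b, a phosphodiesterase that degrades cyclic AMP, had an interaction of -2.90 ± 0.37 (edgeR FDR 0.0015). It was at 89.0 to 111 CPM with sgRunx1 + sgLuc and at 51.3 to 78.3 with sgBcor + sgLuc, but at 20.3, 38.5 and 24.8 CPM with both guides, inside the sgLuc range of 22.1 to 45.7 CPM but for 1 library just below it.

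Tnfaip3 and Egr3 did not stand for their lists as a whole, and Rel and Pde4b were in neither of these lists. Of 19 genes in a list of NF-κB feedback and inflammation, Tnfaip3 alone was called, a share near the 6.44 percent of all genes called, and the list's median interaction was -0.24 against -0.0033 over all genes tested. Nfkbia, which encodes the NF-κB inhibitor IκBα, had an interaction of -0.07 ± 0.48 (edgeR FDR 0.95). Over all genes 3.07 percent were called negative. Of 23 immediate early genes, 3 were called, all negative: Egr3, Klf6 (-1.74 ± 0.35) and Fosl2 (-1.19 ± 0.31). The list's median was -0.97, and 19 of its 23 members had a negative sign. Fos, the best known member, was not called (-1.13 ± 1.11); 1 of the 6 sgLuc libraries had it at 40.6 CPM and the other 5 between 1247 and 2159 CPM, so that sgLuc replicate 4 stood apart for immediate early genes. The calls of Klf6 and Fosl2 did not hold in every fit that left out a library: without sgRunx1 + sgLuc replicate 1 their FDRs were 0.053 and 0.11.

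**Figure D2:**
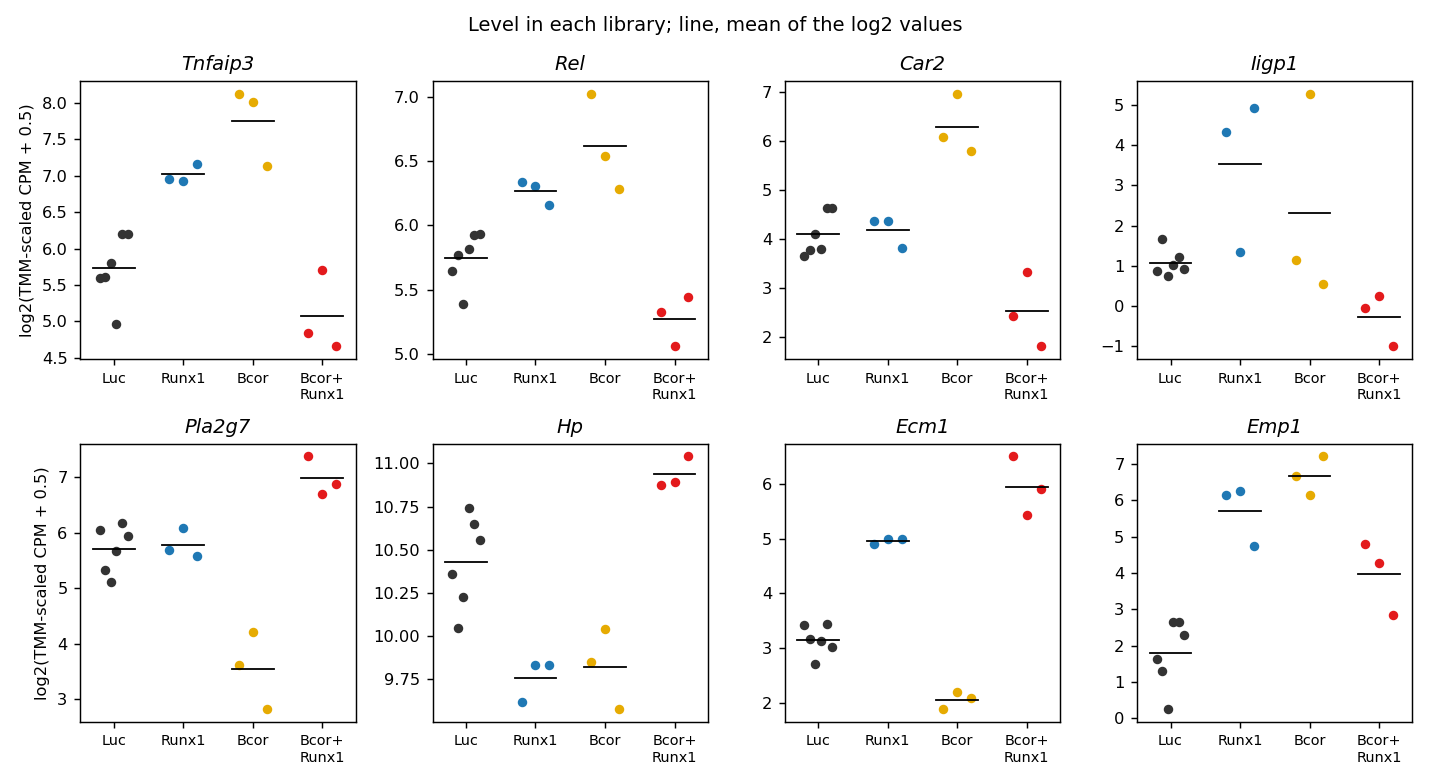
Level of 8 genes in each library (y axis, log2 of TMM-scaled CPM + 0.5) by guide combination (x axis); points are libraries and lines are means of the log2 values. In the upper row the mean of each gene is lowest with both guides, and Iigp1 splits within the groups that carry 1 gene guide; in the lower row Pla2g7, Hp and Ecm1 are highest with both guides and Emp1 is lowest in sgLuc.

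Erythroid genes were the list with the most negative median. Of 23 symbols in the list, 21 were tested and 2 lie on the X chromosome; 10 were called negative and none positive, with a median interaction of -3.52. In 7 of the 21 the level was higher with sgBcor + sgLuc than with sgLuc in edgeR, against 3.35 percent of all genes. In 12 it was lower with sgBcor + sgRunx1 than with sgBcor + sgLuc, against 11.1 percent of all genes, and in 1, Nfe2, it was higher. None differed between sgRunx1 + sgLuc and sgLuc at this threshold. The median effect on the class scale was 1.64 for sgBcor + sgLuc, 0.35 for sgRunx1 + sgLuc and -0.51 for both guides.

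Car2 (chromosome 3), the carbonic anhydrase of red cells, was at 67.1, 124 and 54.7 CPM with sgBcor + sgLuc. It was at 12.1 to 24.4 CPM with sgLuc, at 20.1, 20.2 and 13.6 CPM with sgRunx1 + sgLuc and at 4.92, 9.61 and 3.02 CPM with both guides. No library with both guides reached the lowest library of any other group, and the interaction was -3.86 ± 0.55 (edgeR FDR 0.0040; reversed). Klf1, the master transcription factor of erythroid cells, was at 3.87, 9.16 and 3.77 CPM with sgBcor + sgLuc against 0.18 to 1.86 CPM with sgLuc, 0.49 to 1.47 with sgRunx1 + sgLuc and 0.63, 0.17 and 0.14 with both guides (interaction -4.50 ± 1.11, edgeR FDR 0.031). Its level in sgBcor + sgLuc overlapped no other group, while the 3 others overlapped each other.

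Other called members included Sptb, Ank1 and Epb42 of the red cell membrane skeleton, the erythropoietin receptor gene Epor, and the blood group genes Rhd and Ermap, with interactions from -6.17 (Ermap) to -3.05 (Sptb). None of these 6 exceeded 20.9 CPM in any library. The globin genes did not share the pattern: Hba-a1 had an interaction of -0.89 ± 1.15 and Hbb-bs of -0.35 ± 1.34, and neither passed the test. Hbb-bs was at 82.6, 13.5 and 2.04 CPM with both guides, a spread wider than that between groups, and the Hba genes share near-identical sequence. Slc4a1, the band 3 anion exchanger, was not called either (-4.47 ± 1.5, edgeR FDR 0.090). The summed level of 9 defining erythroid markers ranged from 276 to 333 CPM with sgBcor + sgLuc, 137 to 260 with sgLuc, 134 to 217 with sgRunx1 + sgLuc and 131 to 328 with both guides. The part of erythroid cell number was not tested.

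The count of erythroid calls was less stable than their sign. Leaving out 1 library at a time gave 1 to 9 negative calls and a list median between -4.0 and -3.05; the single call remained without sgRunx1 + sgLuc replicate 1. Among genes chosen after their values were seen, because they were called in every such fit, Hemgn (hemogen, a nuclear protein of erythroid and progenitor cells) had an interaction of -3.17 ± 0.50 and Kel (the Kell blood group protein) of -5.79 ± 1.07. Hemgn was at 5.16, 11 and 3.82 CPM with sgBcor + sgLuc, at 2.72 to 3.14 with sgRunx1 + sgLuc, and at 0.80, 1.0 and 0.68 with both guides, below the lowest sgLuc library at 1.71 CPM.

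**Figure D3:**
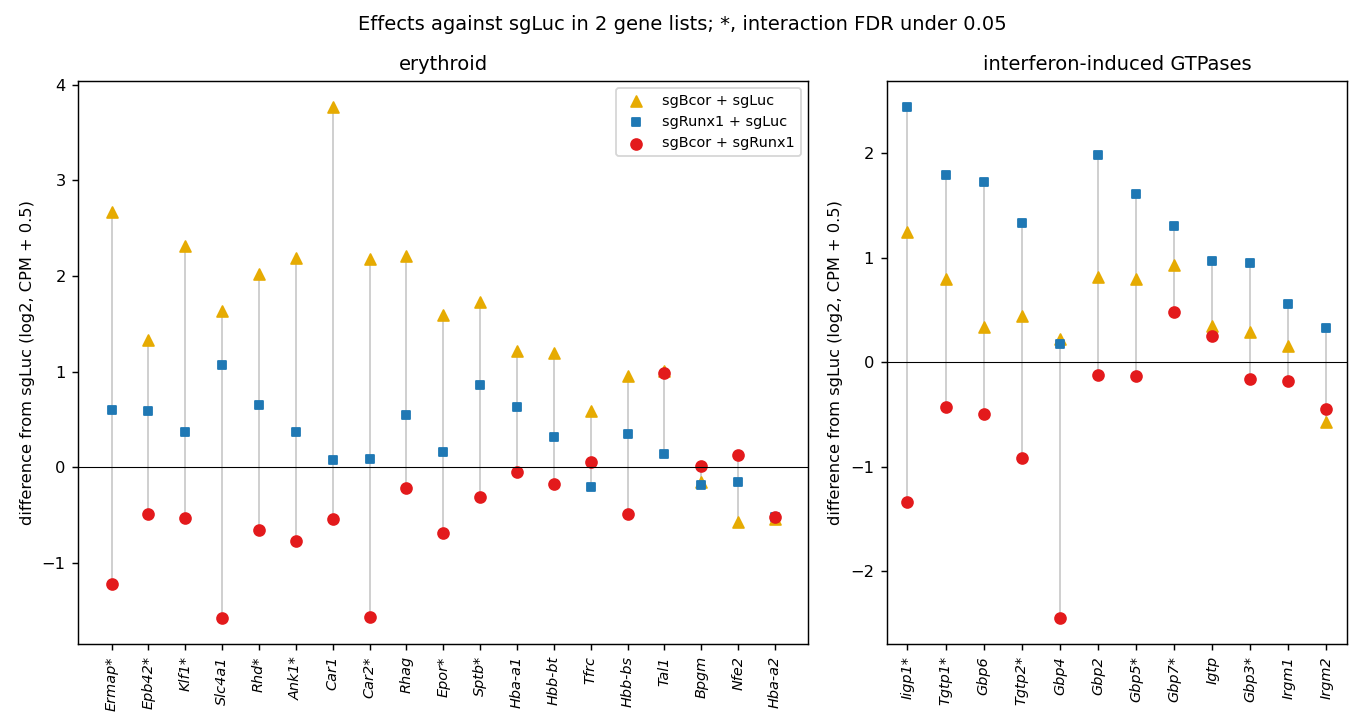
Difference from sgLuc (y axis, log2 of CPM + 0.5) for 19 tested members of the erythroid list (left) and the 12 of the interferon-induced GTPases (right), ordered by interaction; symbols give the 3 guide combinations and asterisks mark an interaction FDR under 0.05. Erythroid members rank highest with sgBcor + sgLuc and GTPases with sgRunx1 + sgLuc in most columns, while the effect of both guides lies near or below 0.

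Interferon-induced GTPases, which attack intracellular pathogens and the vacuoles that hold them, had the next most negative median, -3.20 over 12 members. Of the 12, 6 were higher with sgRunx1 + sgLuc than with sgLuc in edgeR, against 5.43 percent of all genes. All 12 had a negative interaction and 6 of those were called, against 3.07 percent of all genes: Gbp7, Gbp5, Iigp1, Gbp3, Tgtp1 and Tgtp2. Members of this family, Tgtp1 and Tgtp2 above all, are near-identical, so how reads were divided between them is uncertain. Iigp1 (chromosome 18) was at 1.17 to 2.65 CPM with sgLuc, at 19.4, 2.04 and 29.6 CPM with sgRunx1 + sgLuc and at 1.70, 38.3 and 0.98 CPM with sgBcor + sgLuc. With both guides it was at 0.47, 0.69 and 0 CPM. The interaction was -8.49 ± 1.86 (edgeR FDR 0.024).

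The high values of Iigp1, Tgtp1, Tgtp2 and Gbp2 came from the same 3 libraries. Gbp2, which was not called (-3.54 ± 1.13, edgeR FDR 0.080), stood at 95.9 and 147 CPM in sgRunx1 + sgLuc replicates 1 and 3 and at 110 CPM in sgBcor + sgLuc replicate 2, but at 22.7 CPM in sgRunx1 + sgLuc replicate 2 and at 13.8 and 18.1 CPM in the other sgBcor + sgLuc libraries. Its sgLuc range was 15.3 to 21.3 CPM. Single libraries thus set the result: with 1 library left out the number of negative calls ranged from 0 to 8 and the list median from -3.60 to -2.05, and no call was left without sgRunx1 + sgLuc replicate 1. Of 24 genes of the type I interferon response, 2 were called negative, against 3.07 percent of all genes, and the median was -0.24.

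Hp, a reversed gene with a positive interaction, was lower with either guide alone and higher with both. Hp (chromosome 8) encodes haptoglobin, which binds free haemoglobin and is stored in neutrophil granules. Among the 12 genes listed here under primary granules it was the only one called, and 3.37 percent of all genes were called positive. It ran from 1055 to 1709 CPM with sgLuc and stood at 784, 910 and 910 CPM with sgRunx1 + sgLuc and at 922, 1054 and 763 CPM with sgBcor + sgLuc. With both guides it was at 1880, 1903 and 2106 CPM, above every other library. The interaction was 1.79 ± 0.24 (edgeR FDR 0.0015).

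Pla2g7 (chromosome 17), a secreted phospholipase that inactivates platelet-activating factor, was low with the Bcor guide alone and high with both. It was at 11.8, 18.2 and 6.59 CPM with sgBcor + sgLuc, at 51.4, 67.3 and 47.6 CPM with sgRunx1 + sgLuc and at 166, 103 and 118 CPM with both guides, against 34.2 to 71.7 CPM with sgLuc. Thus the groups with the Bcor guide lay on opposite sides of sgLuc without overlap, and sgRunx1 + sgLuc lay within the sgLuc range. The interaction was 3.36 ± 0.47 (edgeR FDR 0.0027). Plin2, a lipid droplet coat protein, took a similar form at smaller size, with an interaction of 1.78 ± 0.33 (edgeR FDR 0.011) and levels of 285, 263 and 174 CPM with both guides.

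Synergistic genes were of several forms. Pml (chromosome 9), the scaffold of nuclear bodies, ranged from 74.1 to 94.9 CPM with sgLuc, overlapping sgRunx1 + sgLuc (78.9 to 86.3) and sgBcor + sgLuc (90.1 to 109), and was at 49.3, 52.5 and 46.3 CPM with both guides. Its interaction was -1.0 ± 0.15 (edgeR FDR 0.0028).

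In other synergistic genes the guides given alone acted in opposite directions, so that their sum was small. Ecm1 (chromosome 3), extracellular matrix protein 1, was at 5.99 to 10.4 CPM with sgLuc, 29.2, 31.1 and 31.2 CPM with sgRunx1 + sgLuc and 3.18, 4.07 and 3.73 CPM with sgBcor + sgLuc. With both guides it was at 90.1, 42.3 and 59.2 CPM. The 4 groups did not overlap: the Bcor guide went with a lower level when alone and with a higher level when added to the Runx1 guide. The interaction was 2.28 ± 0.32 (edgeR FDR 0.0022). Grap2, an adaptor of T cell and platelet signalling, was the mirror image, at 15.2, 18.8 and 22 CPM with sgBcor + sgLuc, 2.57 to 4.17 CPM with sgRunx1 + sgLuc and 0.94, 1.75 and 0.76 CPM with both guides (interaction -2.25 ± 0.35, edgeR FDR 0.0049). Ciita, the master activator of MHC class II genes, was lower with either guide than with sgLuc on average and at 1.34, 2.27 and 1.58 CPM with both (interaction -2.03 ± 0.50, edgeR FDR 0.032); without sgRunx1 + sgLuc replicate 1 its FDR was 0.075. In linear CPM the interaction of Ciita was positive (0.92 CPM), so its sign and class hold on the log2 scale; 8 called genes turn in sign in this way.

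Buffered genes included marked losses that did not add up. Apoc2, an apolipoprotein of macrophages, was at 8.07 to 32.2 CPM with sgLuc, 1.58, 2.11 and 2.28 CPM with sgRunx1 + sgLuc, 3.91, 2.39 and 2.23 CPM with sgBcor + sgLuc and 13.4, 3.36 and 3.32 CPM with both guides. All 9 libraries but 1 lay below the sgLuc range, and the interaction was 4.51 ± 0.73 (edgeR FDR 0.0069). Hmox1, haem oxygenase, was at 58.2 to 85.7 CPM with sgLuc, at 27.8 to 33.7 and 25.3 to 34.5 CPM with either guide and at 56.8, 40.4 and 57.9 CPM with both, an interaction of 1.96 ± 0.24 (edgeR FDR 0.0015). Lmo1, a LIM-domain oncogene, was at 1.78 to 3.60 CPM with sgRunx1 + sgLuc and 6.66 to 10.7 CPM with sgBcor + sgLuc, and at 7.31, 6.77 and 10.006 CPM with both (interaction 2.95 ± 0.41, edgeR FDR 0.0021). In Lmo1 the libraries with both guides lay within the range of the Bcor guide alone.

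Emp1 and Hebp1 were lower in every sgLuc library than in any of the other 9. Emp1, an epithelial membrane protein gene, was at 0.69 to 5.84 CPM with sgLuc and at 69.9, 76.5 and 26.4 CPM with sgRunx1 + sgLuc, 102, 71.1 and 148 CPM with sgBcor + sgLuc and 27.2, 19.1 and 6.74 CPM with both guides (interaction -6.61 ± 0.94, edgeR FDR 0.0049). Hebp1, a haem-binding protein gene, was at 1.88 to 7.29 CPM with sgLuc and at 36.1 to 63.9 CPM in the 9 others (-3.25 ± 0.43, edgeR FDR 0.0016). Both lie on chromosome 6, 22.3 and 22.1 Mb from Gt(ROSA)26Sor, whose own interaction was 5.48 ± 0.73 (edgeR FDR 0.0015). Of 408 genes tested within 25 Mb of that locus, 26 were called (6.37 percent), against 6.45 percent of all other genes. The arrangement with the 3 gene-guide groups together and sgLuc apart was met by 5 of these 408 genes and by 78 of the 15762 others; the part of this locus in the result was not tested.

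Members of the RUNX family and their partners were called negative in 5 of 13 tested and positive in 1, against 3.07 and 3.37 percent of all genes. Runx3 was at 35.1 to 47.3 CPM with sgLuc and between 66.9 and 84.9 CPM in all 9 libraries with a gene guide, an interaction of -0.66 ± 0.16 (edgeR FDR 0.026). Runx2 (-1.11 ± 0.28), Etv6 (-0.67 ± 0.16), Cbfa2t2 (-0.74 ± 0.20) and the Groucho-family corepressor gene Tle4 (-0.50 ± 0.14) were the others. Spi1, which encodes the myeloid master factor PU.1, was positive (0.93 ± 0.24, edgeR FDR 0.034). Without sgRunx1 + sgLuc replicate 1 the FDRs of Runx3, Runx2, Etv6 and Spi1 were 0.0746, 0.0921, 0.0855 and 0.102. Of 18 myeloid transcription factors, Spi1, Id2 and Cebpd were called, all positive, against 3.37 percent of all genes. Without the same library the FDRs of Id2 and Cebpd were 0.113 and 0.127.

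Homeobox genes of the A and B clusters, which mark self-renewing progenitors, were near-uniform in sign. Of 17 tested, 16 had a negative interaction with a median of -1.64, and 2 were called, Hoxb6 and Hoxb4, against 3.07 percent of all genes called negative. Most members were near the floor with sgLuc, so the size of that median is uncertain. Hoxa7, Hoxa9, Hoxb3 and Hoxb4 had sgLuc medians of 1.22 to 13.8 CPM, and the other members 0 to 0.99 CPM. On the class scale the list's median effects were 1.34 with sgBcor + sgLuc, 0.12 with sgRunx1 + sgLuc and 0.79 with both guides. Hoxb6 stood at 3.63, 0.41 and 0.34 CPM with sgBcor + sgLuc, and its FDR was 0.164 without replicate 1 of that group; that of Hoxb4 was 0.101 without sgRunx1 + sgLuc replicate 2. In 14 of the 17 the level was higher with sgBcor + sgLuc than with sgLuc in edgeR, against 3.35 percent of all genes. Hoxa9 had an interaction of only -0.18 ± 0.41: it was at 23.3 to 27.8 CPM with sgBcor + sgLuc and at 21.9, 9.35 and 27.5 CPM with both guides, against 3.89 to 7.39 CPM with sgLuc and 5.13 to 5.93 CPM with sgRunx1 + sgLuc. Its level was higher in all 6 libraries with the Bcor guide than in any of the 9 without it.

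Genes of the neutrophil granules, which make up much of the marrow's RNA, gave no calls in a list of 19 secondary and tertiary granule genes, although all 19 had a positive sign and a median of 0.45. The summed neutrophil markers ran from 68762 to 119190 CPM with both guides and from 42270 to 90751 CPM with sgLuc. Oxidative phosphorylation genes were called positive in 4 of 21 (Ndufb8, Uqcrc1, Cox5b and Cox5a, from 0.63 to 0.95), cytosolic ribosomal proteins in 3 of 44 and glycolysis genes in 2 of 17, with no negative calls in these lists; 3.37 percent of all genes were called positive. Without sgRunx1 + sgLuc replicate 1 none of the 4 oxidative phosphorylation genes was called (FDR 0.072 for Ndufb8 to 0.108 for Cox5a). B cell progenitor genes had a median of -2.17 and all 22 had a negative sign. Of these 1 was called, Bcl11a (-1.22 ± 0.24), against 3.07 percent of all genes called negative. The B cell marker sum spread from 66.3 to 2190 CPM within sgBcor + sgLuc and was 253 to 739 CPM with sgLuc, 26.1 to 53.3 with sgRunx1 + sgLuc and 19.9 to 48.4 with both guides.

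**Figure D4:**
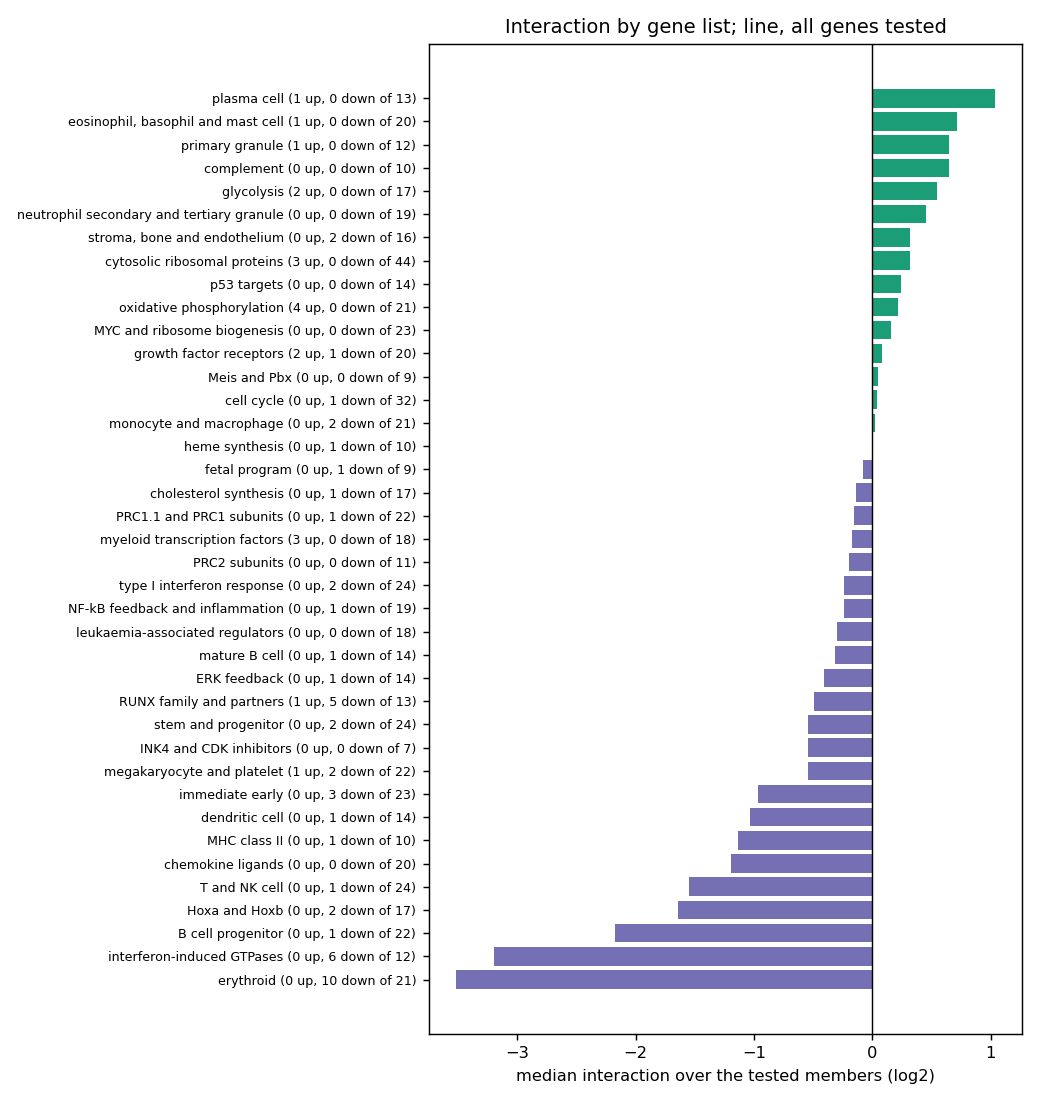
Median interaction (x axis, log2) over the tested members of each gene list, with the numbers called positive (up) and negative (down) beside the name; the line marks the median of all genes tested, -0.0033. The erythroid list (-3.52) and the interferon-induced GTPases (-3.20) lie farthest out, and most lists lie within 1 of 0.

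Promoter sequences are shown for genes of the largest interaction in size in each class for which one could be printed, and for Hemgn, chosen after its values were seen, to set their letters beside the core that RUNX proteins bind. They are RefSeq sequences of build GRCm38.p6, from 250 bases before to 50 after the annotated start, printed from 5′ to 3′ on the gene's strand; capitals mark TGTGGT or its reverse complement ACCACA. Vcan (versican, buffered, interaction 8.06) is at chr13:89742463-89742762, minus strand; Cr2 (complement receptor 2, synergistic, -6.47) at chr1:195176670-195176969, minus strand; Entpd3 (an ectonucleotidase, reversed, 6.55) at chr9:120539568-120539867, plus strand; and Hemgn (reversed) at chr4:46404134-46404433, minus strand.
Cr2: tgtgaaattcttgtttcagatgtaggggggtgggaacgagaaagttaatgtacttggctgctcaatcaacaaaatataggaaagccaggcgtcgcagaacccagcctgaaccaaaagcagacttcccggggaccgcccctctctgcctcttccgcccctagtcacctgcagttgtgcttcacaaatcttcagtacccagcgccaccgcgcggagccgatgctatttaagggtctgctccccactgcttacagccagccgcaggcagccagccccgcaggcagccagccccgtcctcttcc
Vcan: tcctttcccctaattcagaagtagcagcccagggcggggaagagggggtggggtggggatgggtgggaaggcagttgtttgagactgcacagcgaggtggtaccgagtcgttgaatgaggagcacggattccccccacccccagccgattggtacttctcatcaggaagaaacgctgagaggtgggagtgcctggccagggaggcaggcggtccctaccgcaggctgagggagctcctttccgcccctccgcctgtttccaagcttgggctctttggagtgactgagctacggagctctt
Entpd3: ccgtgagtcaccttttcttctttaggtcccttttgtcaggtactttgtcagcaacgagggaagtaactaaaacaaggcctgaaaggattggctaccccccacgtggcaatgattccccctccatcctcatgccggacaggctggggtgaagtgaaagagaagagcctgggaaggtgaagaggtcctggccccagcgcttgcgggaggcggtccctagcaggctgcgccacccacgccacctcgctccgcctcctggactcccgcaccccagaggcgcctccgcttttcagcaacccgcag
Hemgn: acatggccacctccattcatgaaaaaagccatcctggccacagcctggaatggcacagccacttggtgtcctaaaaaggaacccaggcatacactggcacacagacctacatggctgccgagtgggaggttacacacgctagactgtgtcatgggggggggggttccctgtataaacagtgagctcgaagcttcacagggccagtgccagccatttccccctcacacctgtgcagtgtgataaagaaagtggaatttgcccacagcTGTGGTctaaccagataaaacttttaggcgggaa

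TGTGGT, searched on both strands, was found once in the Hemgn window and not in the other 3. Among 10747 tested genes with a RefSeq window, 13.3 percent held it, against 12.5 percent of the 753 called genes with a window. The share was 10.3 percent in synergistic, 13 percent in buffered and 13.5 percent in reversed genes, and 16.9 percent over all 27025 windows. A match describes letters only, and its absence here says nothing of RUNX binding. The calls of Vcan, Cr2 and Entpd3 did not hold in every fit that left out a library: without sgRunx1 + sgLuc replicate 1 their FDRs were 0.105, 0.116 and 0.123. Single libraries were high in Vcan (58.9 CPM with both guides, against 0.86 and 3.62 in the others) and in Entpd3 (64.4 against 3.52 and 1.61). Cr2 was at 0 in all 3 libraries with both guides, so that its fitted interaction is no bound. With sgRunx1 + sgLuc Cr2 was already at 0.35, 0.22 and 0.21 CPM, against 1.74 to 9.11 CPM with sgLuc. On the class scale its departure from the sum was only -0.56.

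The number of genes called depended on single libraries. With 1 library left out it ranged from 151, without sgRunx1 + sgLuc replicate 1, to 1538, without sgBcor + sgRunx1 replicate 1. It was also more than 1.5 times lower than 1042 without sgRunx1 + sgLuc replicate 2 (279), sgBcor + sgLuc replicate 1 (336), sgBcor + sgLuc replicate 3 (373), sgLuc replicate 1 (622) and sgLuc replicate 5 (658). Of the 1042 genes, 147 were called in all 15 such fits: 63 positive and 84 negative, comprising 19 synergistic, 91 buffered and 37 reversed genes. The sign of the interaction was kept for all 1042 in every such fit except that without sgLuc replicate 2, in which 1041 kept it. Tnfaip3, Rel, Egr3, Pde4b, Car2, Hemgn, Kel, Hp, Pla2g7, Plin2, Pml, Ecm1, Grap2, Apoc2, Hmox1, Lmo1, Emp1, Hebp1 and Bcl11a are among the 147.

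**Figure D5:**
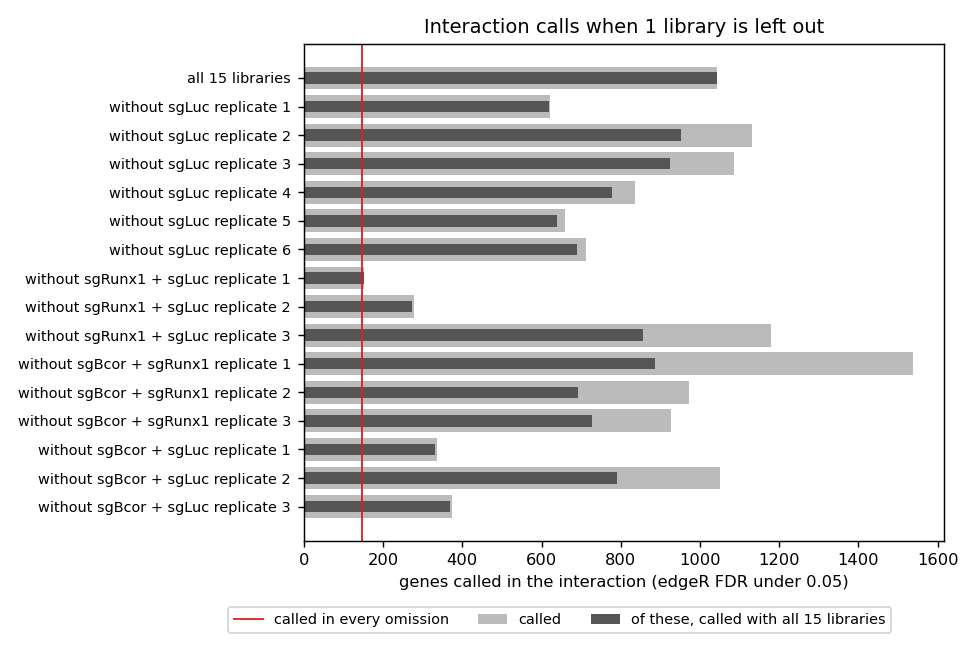
Genes called in the interaction (x axis, edgeR FDR under 0.05) with all 15 libraries and with each library left out in turn (y axis); pale bars give all calls, dark bars those also called with all 15 libraries, and the line the 147 genes called in every omission. The count falls to 151 without sgRunx1 + sgLuc replicate 1 and rises to 1538 without sgBcor + sgRunx1 replicate 1.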

How the data were processed

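Whole marrow RNA was enriched with oligo(dT) beads and sequenced. The deposited values are the authors' read counts per Ensembl gene, 1 column per library; fastp, HISAT2, HTSeq and the build mm9 are named in the submitters' processing notes, and their versions, options and strand setting were not stated by any source used here. Without a stated strand, reads of overlapping genes cannot be separated. Chromosomes came from GENCODE M21 (GRCm38), which held 98.95 percent of the 47069 gene IDs. From the counts, genes were filtered with filterByExpr (minimum count 10; 16766 passed, of which 529 lay on X or Y and 67 had no chromosome), scaled by TMM and tested in edgeR 4.0.16 (R 4.3.3) by the robust quasi-likelihood test over 15 libraries with 4 group means and 11 residual degrees of freedom, with Benjamini-Hochberg adjustment. The labels do not say that replicates are separate animals, so p-values measure the spread between these libraries. The fit was tested on simulated data with known interactions but, unlike these data, no effects of the guides given alone. At simulated sizes of 1, 2, 3 and 4 (log2) it called 18, 42, 68 and 80 percent of the changed genes. Of its 108 calls 4 were false.

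Named genes were Runx1 and Bcor, the 6 of largest interaction in size per class and direction at a mean of at least 4 CPM, leaving out predicted genes, pseudogenes and receptor segments, and up to 4 called members per list; genes named besides these were chosen after their values were seen. The members and lists were chosen with earlier results of these data known. Alternatives were DESeq2 1.42.0, other scaling, filter, libraries, pseudocount and class limits, a replicate block, and each library left out. Some genes are not reported here.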

Additional observations from a re-analysis of the deposited data

Results flagged for a closer look

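The total of sgLuc replicate 5 was 57175449 counts, and the other 5 sgLuc libraries held 30023722 to 33191421. Myh10 was at 4.18 CPM in sgLuc replicate 6 against 1.25 to 2.31 CPM in the other 5, and Rnf217 at 10.4 CPM in sgLuc replicate 2 against 5.57 to 7.30. Each of these values lay far from the nearest other library for the range of its group; 37 groups were examined, 3 had such a value and about 1.85 would by chance, at 1 in 20. The effect of adding the Bcor guide differed with the presence of the Runx1 guide, by the interaction test in edgeR, in the positive direction for 545 genes and in the negative direction for 497.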

How the results depend on the processing

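The counts of calls moved with the processing, and the cause was not tested. With all 22 libraries in the fit, the interaction had 565 calls (89 synergistic, 411 buffered, 65 reversed), and sgBcor + sgRunx1 against sgRunx1 + sgLuc and against sgBcor + sgLuc had 183 and 2092; sgRunx1 + sgLuc and sgBcor + sgLuc against sgLuc had 1394 and 520. With 21 libraries, leaving out replicate 3 of sgEzh2 + sgLuc, a group of the series not used here, the interaction had 1609 calls (308 synergistic, 1158 buffered), sgBcor + sgRunx1 against sgRunx1 + sgLuc 860 and sgBcor + sgLuc against sgLuc 1424. DESeq2 gave 2081 (462 synergistic, 1441 buffered, 176 reversed), 1445 and 1894 for the same comparisons. With no filter on low counts there were 705 interaction calls and 108 synergistic genes, and 1009 calls with DESeq2's median-ratio scaling in edgeR. Reversed genes numbered 70 with a pseudocount of 2, 361 with a least size of 0.25 (127 synergistic) and 20 with a least size of 1. On the linear scale, with no least size for a reversal, the synergistic, buffered and reversed classes held 42, 302 and 690. A replicate block gave 123 interaction calls (10 synergistic, 87 buffered, 26 reversed), 225, 803, 278 and 2171 calls for sgBcor + sgRunx1 against sgRunx1 + sgLuc, sgRunx1 + sgLuc, sgBcor + sgLuc and sgBcor + sgRunx1 against sgLuc. Positive calls were 29.3 percent with the block and 52.3 percent without. The block used the numbers in the titles. By these, 18 same-numbered pairs had correlations of deviations from -0.30 to 0.23, with a median of 0.01, and 4 were above 0.1. The count table's columns number the sgBcor + sgRunx1 libraries 2, 3 and 5. By those numbers their correlations with sgRunx1 + sgLuc were 0.18 and 0.30. With sgLuc they were 0.31, -0.18 and -0.08, and with sgBcor + sgLuc -0.04 and -0.07. No block by column number was fitted, so pairing by it was not tested.

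With 1 library left out, calls ranged from 151 to 1538 for the interaction (20 to 392 synergistic, 95 to 949 buffered, 36 to 197 reversed), 52 to 778 for sgBcor + sgRunx1 against sgRunx1 + sgLuc, 1827 to 3170 against sgBcor + sgLuc, 871 to 2679 for sgRunx1 + sgLuc, 287 to 1446 for sgBcor + sgLuc and 2331 to 3578 for sgBcor + sgRunx1 against sgLuc. No interaction of the 83 named genes changed sign in any refit, but 68 lost their call without sgRunx1 + sgLuc replicate 1, 61 with the replicate block, 50 without sgRunx1 + sgLuc replicate 2 and 49 with all 22 libraries. Intervals cover counting error and the spread of 3 to 6 libraries only.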
